A study of Mus musculus with 6 samples.

Results

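The Hist1 cluster on mouse chromosome 13 was examined through the ATAC-seq regions that overlap the mm9 window from 21790000 to 23870000 (2.08 Mb). The window was chosen for the genes it holds and not by a measured value, but with earlier results of these data known. It contained 87 of the 42310 regions of the DMSO list, 97 of 25922 regions after 6 h of BRM014 and 93 of 38422 after 30 h. In ATAC-seq the Tn5 transposase cuts and tags accessible DNA, so a region is a stretch where tagged fragments pile up. The cells were NMuMG, an established wild-type epithelial line from normal mouse mammary gland, grown with serum and insulin. They received DMSO, the solvent, or BRM014, which blocks the ATPases of the SWI/SNF chromatin remodelling complexes. There were 2 biological replicates in each of the 3 groups, and each list was made from both, so differences between lists have no replicate check. The name of its list gives the DMSO treatment as 30 h, which leaves the 6 h cells without a vehicle list of their own time. Markers of mammary epithelium were not looked up, because no gene annotation of the build mm9 was used.

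The core histones H2A, H2B, H3 and H4 form the nucleosome, and H1 binds the linker DNA between nucleosomes. Their replication-dependent genes are intronless, are transcribed mainly in S phase, and end in a stem-loop in place of a poly(A) tail. Most mouse copies lie in Hist1, where the histone locus body gathers the factors for their transcription and 3′ end processing. The RefSeq gene order of GRCm38.p6 lists 52 protein-coding histone genes in the cluster: 6 for H1, 12 for H2A, 14 for H2B, 9 for H3 and 11 for H4. They stand in a first group of 23 and a second group of 29. A run of 75 vomeronasal receptor genes and pseudogenes (Vmn1r), which serve pheromone sensing and have no known role in mammary epithelium, separates the groups. Transfer RNA genes, transcribed by RNA polymerase III, are mixed into this order: 32 before the Vmn1r run, and 45 between it and the second histone group. No region below was tied to any of these genes.

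Promoters of the cluster are shown first, because they are the regulatory DNA for which the window was chosen. Each line gives the 120 bases before the annotated start, 5′ to 3′ on the gene's strand, for the first and the last gene of each class with a promoter in the RefSeq table (chromosome 13, GRCm38.p6, plus or minus strand as stated). Capitals mark the CCAAT element, the TATA box form TATAAA, the GC box core GGGCGG and the H1 box AAACACA, or the reverse complement of each.
H1f5 (H1, minus strand): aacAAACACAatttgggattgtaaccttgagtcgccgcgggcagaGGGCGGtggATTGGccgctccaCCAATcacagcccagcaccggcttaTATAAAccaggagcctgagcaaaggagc
H1f1 (H1, plus strand): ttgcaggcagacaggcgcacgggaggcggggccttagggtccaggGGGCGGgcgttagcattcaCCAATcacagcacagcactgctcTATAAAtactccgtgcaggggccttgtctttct
H2ac13 (H2A, plus strand): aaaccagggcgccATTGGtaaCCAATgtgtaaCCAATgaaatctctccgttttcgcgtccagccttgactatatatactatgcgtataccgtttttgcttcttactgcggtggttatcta
H2ac4 (H2A, plus strand): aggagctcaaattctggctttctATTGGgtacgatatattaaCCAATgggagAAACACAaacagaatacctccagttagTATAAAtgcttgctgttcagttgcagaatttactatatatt
H2bc13 (H2B, minus strand): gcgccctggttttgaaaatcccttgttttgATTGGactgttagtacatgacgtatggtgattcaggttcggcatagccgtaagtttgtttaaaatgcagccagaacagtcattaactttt
H2bc3 (H2B, plus strand): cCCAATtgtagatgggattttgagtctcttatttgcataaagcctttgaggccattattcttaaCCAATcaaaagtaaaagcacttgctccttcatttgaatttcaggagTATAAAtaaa
H3c10 (H3, plus strand): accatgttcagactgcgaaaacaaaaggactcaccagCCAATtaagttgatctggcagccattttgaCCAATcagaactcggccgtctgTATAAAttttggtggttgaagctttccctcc
H3c2 (H3, plus strand): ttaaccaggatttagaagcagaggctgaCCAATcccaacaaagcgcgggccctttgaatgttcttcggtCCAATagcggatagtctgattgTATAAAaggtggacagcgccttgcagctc
H4c11 (H4, plus strand): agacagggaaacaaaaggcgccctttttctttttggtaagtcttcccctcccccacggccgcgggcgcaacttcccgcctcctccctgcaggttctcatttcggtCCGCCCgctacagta
H4c1 (H4, minus strand): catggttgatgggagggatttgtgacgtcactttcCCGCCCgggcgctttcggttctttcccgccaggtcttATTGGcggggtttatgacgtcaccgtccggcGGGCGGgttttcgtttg

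The table held 50 promoters for 49 of the 52 genes. Within the 250 bases before the start, on either strand, CCAAT, the element that NF-Y binds, stood in 42 of the 50 (84.0%), against 33.8% of all 32851 promoters. It was found in every H1, H2A, H2B and H3 promoter of the table and in 3 of 11 for H4. TATAAA stood in 24 (48.0%), against 12.4% of all promoters. AAACACA stood in 7 of the 50 (14.0%), against 6.25% of all, and 5 of these were among the 6 H1 promoters. GGGCGG stood in 15 of the 50 (30.0%), near the 32.7% of all promoters. By class these were 8 of 11 for H4, 4 of 6 for H1, 3 of 12 for H2A, and none of the 14 for H2B or the 7 for H3. Matches of different motifs overlapped in 0 of the 50. In 9 H2A and H2B pairs the genes point away from each other and their promoter windows overlap, so such matches are partly counted for both genes. These matches describe letters only, and the lists were not read at these positions.

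In DMSO-treated cells the 87 regions of the window covered 61.7 kb and lay close together. The median distance to the next region was 6.20 kb, against 16.3 kb over the whole list. Of the 86 distances, 20 were under 1 kb, a count that was not made over the whole list. Each region has a summit pileup, the number of overlapping fragments at its highest point, recovered as a whole number from the deposited values. It ran from 31 to 485 with a median of 152, against 129 over all DMSO regions. The local background, the pileup that the caller expected from the neighbourhood, had a median of 19.4 in the window and 9.17 over all regions. The authors' fold enrichment, which divides one by the other, was accordingly low, with a median of 8.82 against 13.0. The regions were therefore high in fragments but modest in fold enrichment. Median width was 652 bp in the window and 677 bp over the list, and 56.3% and 51.0% had more than 1 summit.

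The regions formed a pair of runs. The first, from 21801832 to 22143364, held 29 regions, and the second, from 22990190 to 23855840, held 58. Between them lay 847 kb without a DMSO region, bounded by the regions 22142303 to 22143364 and 22990190 to 22991045. Both edges were called in all lists. The left edge had a pileup of 383 in DMSO, and after scaling to DMSO depth of 551 at 6 h and 489 at 30 h. The right edge had 116 in DMSO, and 119 and 83.0 after scaling. The second run began sparsely: some of its first regions stood 51.6, 165 and 99.9 kb apart, and 50 of its 58 regions lay beyond position 23490000.

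**Figure D1:**
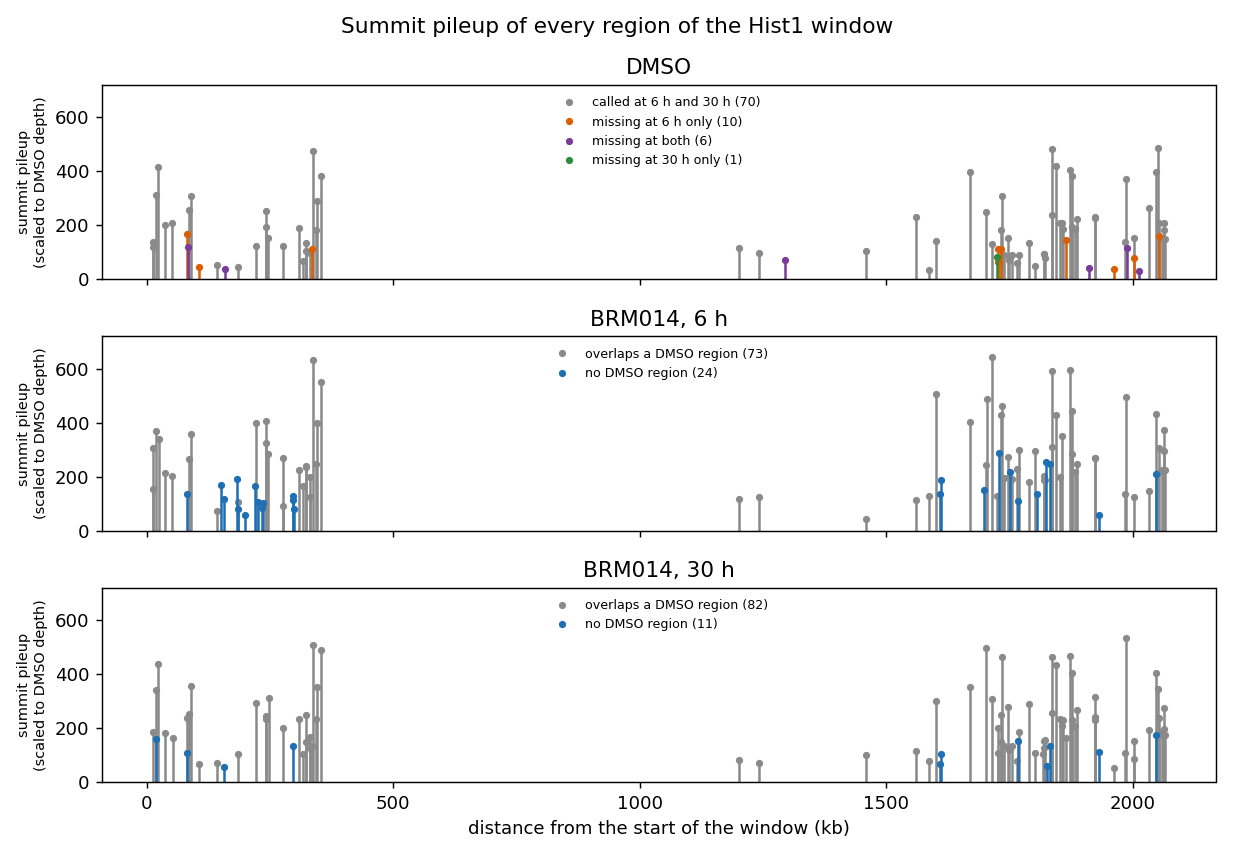
Summit pileup of each region (scaled to the depth of the DMSO list) against its distance from the start of the window in kb, with 1 panel per list; colours mark regions missing or new in the comparison with DMSO. The middle of the window is empty in all panels, and the 24 regions at 6 h without a DMSO region lie on both sides of it.

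At 6 h of BRM014 no region was called over 16 of the window's 87 DMSO regions, 18.4% (Wilson interval 11.6 to 27.8%). Over the whole list the share was 43.6%. After 30 h, 7 were missing, 8.05% (3.95 to 15.7%), against 26.1% over the whole list. At both times the share missing in the window was thus below the share of the whole list, and the window's interval did not reach it. Peaks of higher -log10 q are kept more often, so the share of the whole list was also weighted to the window's own deciles of -log10 q. It then stood at 48.2% for 6 h and 28.9% for 30 h. Weighted to deciles of summit pileup, a choice added after the data were seen, it was 38.9% and 21.8%. With 1 list per group these differences were not tested.

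**Figure D2:**
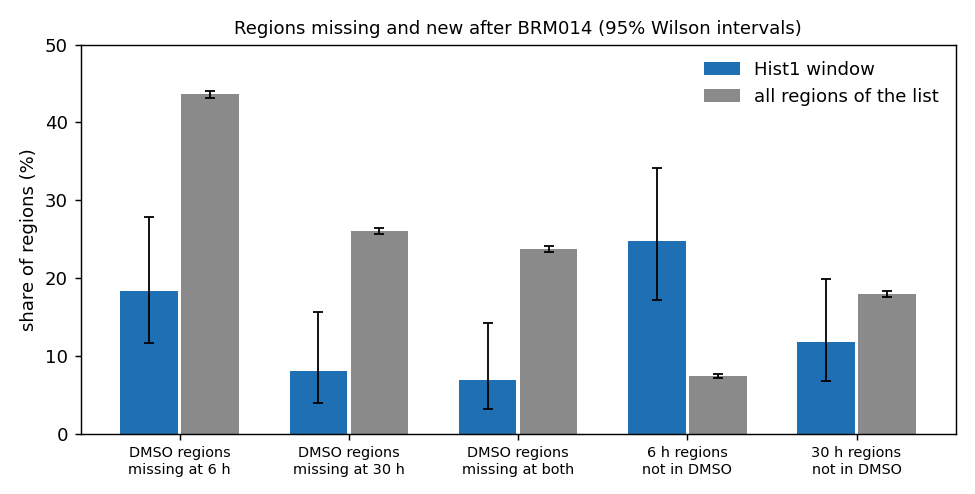
Share of regions (%) missing or new in the Hist1 window and in the whole list, with 95% Wilson intervals as error bars. The window has smaller shares missing (18.4% against 43.6% at 6 h) and a larger share new at 6 h (24.7% against 7.42%).

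All lists called 70 of the 87 regions, against 54.1% of the whole DMSO list. Missing from the 6 h list alone were 10, against 19.9% of the whole list, and from the 30 h list alone 1, against 2.33%. Missing from both treated lists were 6 (6.90%, 3.20 to 14.2%, against 23.7% of the whole list). The 70 had a median pileup of 184.5 (35 to 485) and a median width of 707 bp. The 10 missing at 6 h only were narrow, 221 to 484 bp, each with 1 summit, and had a median pileup of 111. None of the 16 missing at 6 h was among the 10 DMSO regions of the window with the highest -log10 q. Those 10 lay in deciles 9 and 10 of -log10 q, where 6.41% and 1.32% of all DMSO regions were missing at 6 h.

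The 6 regions missing at both times had -log10 q values from 17.3 to 63.4. The highest of these was the region from 23084162 to 23084898, with a pileup of 70 over a local background of 3.37 and a fold enrichment of 16.3. It lay in the sparse start of the second run. Among the others, 2 stood on high and 3 on low local backgrounds. The regions from 21874165 to 21874621 (pileup 120) and from 23779009 to 23779494 (pileup 115) had local backgrounds of 35.4 and 33.1, with fold enrichments of 3.33 and 3.41. The regions from 21947555 to 21948283, from 23701075 to 23701511 and from 23802254 to 23802837 had pileups of 38, 42 and 31 on local backgrounds of 3.37 to 4.70.

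The 10 regions missing at 6 h only were all called at 30 h with a scaled pileup of 1.08 to 1.82 times that in DMSO. The strongest by -log10 q, from 23654966 to 23655371, had a pileup of 146 in DMSO and 162 after scaling at 30 h. The region from 21871157 to 21871636 had 169 and 237. The region from 23516353 to 23516836 had 111 and 202, a ratio of 1.82 (1.42 to 2.34), the largest of the 10. The other 7, from 23522582, 23842799, 21894955, 22125261, 23517371, 23751901 and 23792749 onward, had DMSO pileups of 38 to 161 and ratios of 1.08 to 1.63. The region missing at 30 h only, from 23515636 to 23516137, had a pileup of 82 in DMSO and 130 after scaling at 6 h. It is the neighbour of the region from 23516353, and the pair thus traded places between the times.

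Regions of the window that stayed called mostly had more fragments at the summit than in DMSO, once depth was scaled. The pileup in each treated list was divided by that in DMSO after scaling each list to the same depth. Depth was estimated from the lowest local background of each list, at 63.0% of DMSO at 6 h and 80.7% at 30 h. For the 71 regions kept at 6 h the median ratio was 1.47 (interval of the median 1.30 to 1.77), against 0.855 over all 23858 kept regions. For the 80 kept at 30 h it was 1.25 (1.15 to 1.37), against 0.985 over all 31283. The scaled pileup was higher than in DMSO in 63 of 71 regions at 6 h (88.7%), against 35.1% of all kept regions. At 30 h this held for 65 of 80 (81.2%), against 47.9%. With missing regions counted at 0, the median ratio was 1.33 at 6 h, against 0.406 over the whole list, and 1.21 at 30 h, against 0.821. Read without any scaling, the median was 0.923 at 6 h and 1.01 at 30 h, against 0.538 and 0.795 over all kept regions, so a level above that of DMSO rests on the scaling.

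A ratio of at least 2 was reached by 21 of the 71 regions at 6 h (29.6%), against 1.17% of all kept regions. Among the 21 are the neighbours from 21801832 and 21802727, whose ratios both use the same 6 h summit, inside the latter. The 6 h region with its summit inside the former had a scaled pileup of 154, against 120 in DMSO. A ratio of at most 0.5 was reached by 3 (4.23%), against 18.6%. At 30 h 9 of 80 were at least 2-fold higher (11.2%), against 2.28%, and 1 was at least 2-fold lower (1.25%), against 9.98%. Weighted to the window's deciles of DMSO pileup, the share of all kept regions that were at least 2-fold higher was 1.42% at 6 h and 2.19% at 30 h. The window held 0.206% of all DMSO regions and 7.55% of the 278 kept regions that were at least 2-fold higher at 6 h. By the exact interval of each ratio, which covers counting error only, 46 of 71 lay wholly above 1 at 6 h and 5 wholly below, against 13.4% and 42.1% of all kept regions. At 30 h the counts were 40 and 5 of 80, against 19.0% and 29.3%.

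**Figure D3:**
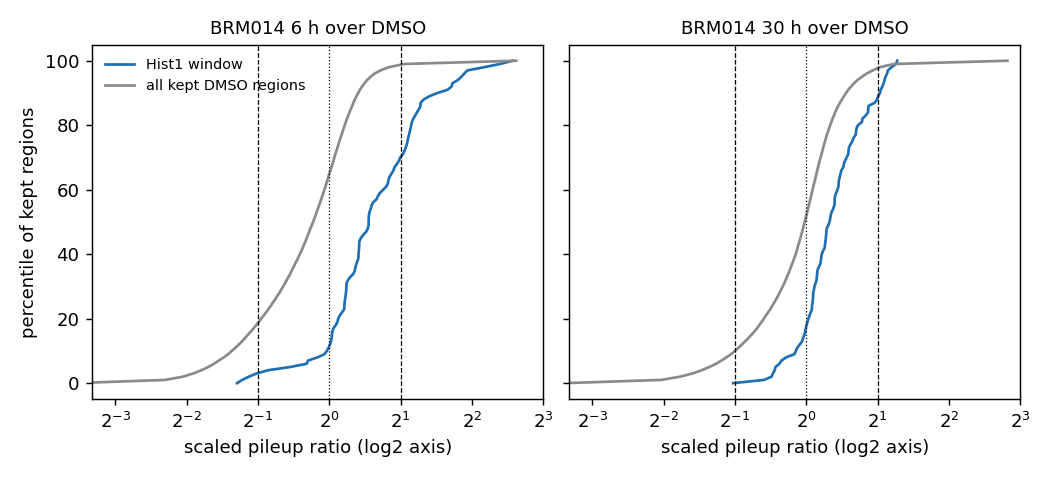
Percentile of kept DMSO regions against the scaled pileup ratio over DMSO (log2 axis), at 6 h and 30 h, for the Hist1 window and for all kept regions; dashed lines mark 2-fold and the dotted line a ratio of 1. Up to the 99th percentile the window's curve lies to the right of the other at both times, with medians of 1.47 against 0.855 and 1.25 against 0.985.

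The local background around these regions moved with the pileups. Scaled in the same way, its ratio to DMSO had a median of 1.44 (1.34 to 1.72) over the 71 kept regions at 6 h. Over all kept regions the median was 0.844. The ratio was above 1 in 64 of the 71 (90.1%), against 28.4% of all kept regions. At 30 h the median was 1.09 (1.01 to 1.35), against 0.981, and 53 of 80 were above 1 (66.2%), against 44.0%. The caller's fold enrichment is relative to that background. Over all regions of the window in each list, kept or not, its medians were 8.82 in DMSO, 8.91 at 6 h and 9.32 at 30 h. Over the whole lists they were 13.0, 13.0 and 12.6. This background is taken around each summit and can include fragments of the region itself and of close neighbours. Its part in the pileup ratios was not tested.

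The 10 DMSO regions of the window with the highest -log10 q were all kept. They lay in deciles 9 and 10 of -log10 q of the whole list. Few regions of these deciles were missing anywhere: 6.41% and 1.32% at 6 h, and 1.70% and 0.520% at 30 h. The first of the 10, from 22127033 to 22128216, had a pileup of 477, and scaled pileups of 633 at 6 h and 509 at 30 h. The second, from 23460471 to 23461522, had 397, 403 and 353. The region from 23635003 to 23635574 had 418, 429 and 434. The ratios of these 3 lay between 0.889 and 1.33. The region from 21813283 to 21814467 had 415, 338 and 439, and that from 23626672 to 23627431 had 484, 592 and 463. The region from 23662646 to 23663497 had 405, 594 and 468. Their ratios stayed between 0.815 and 1.47. The left edge of the empty stretch, from 22142303, also belongs to the 10, with ratios of 1.44 and 1.28.

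The other 3 of the 10 were lower at both times. The region from 23841466 to 23841963 had the highest pileup of the window in DMSO, 485, and 213 at 6 h and 344 at 30 h after scaling. Its ratio was 0.439 (0.359 to 0.532) at 6 h and 0.710 (0.611 to 0.825) at 30 h. The region from 23350303 to 23350958 had the highest fold enrichment of the window in DMSO, 28.9, and pileups of 232, 113 and 114. It was the only region at least 2-fold lower at 30 h, with a ratio of 0.491 (0.382 to 0.628). The region from 23822257 to 23823202 had 263, 149 and 193. The third region at least 2-fold lower at 6 h, from 23249688 to 23250417, had 105, 42.9 and 102, so that its pileup at 30 h was near that of DMSO.

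The regions with the largest ratios were chosen after their values were seen. The region from 23592358 to 23592988 had a pileup of 50 in DMSO, 297 at 6 h and 107 at 30 h after scaling. Its ratio was 5.94 (4.33 to 8.28) at 6 h and 2.13 (1.49 to 3.08) at 30 h. The region from 23504276 to 23504959 had 130, 643 and 310, the highest scaled pileup of the window at 6 h, with ratios of 4.95 (4.05 to 6.07) and 2.38 (1.92 to 2.97). The region from 23555306 to 23555678 had 60, 230 and 79.3. It was near its DMSO level at 30 h, with a ratio of 1.32 (0.914 to 1.91).

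In all, 7 of the 70 regions called in all lists were at least 2-fold higher at both times, against 0.516% of such regions of the whole list. Besides the first 2 just named they were those from 21974678 to 21975167 with pileups of 47, 108 and 104, and from 22010677 to 22011532 with 122, 400 and 295. The others began at 23377086 (35, 129 and 76.8), 23390215 (143, 505 and 301) and 23558790 (91, 298 and 186). In all 7 the scaled pileup was higher at 6 h than at 30 h, by the least in the region from 21974678.

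With this scaling, levels at 6 h exceeded those at 30 h in most regions of the window. Of the 70 regions called in all lists, 52 had a higher scaled pileup at 6 h (74.3%), against 29.7% of the 22871 such regions of the whole list. The median of 6 h over 30 h was 1.22 in the window and 0.849 over the whole list. Without scaling the order turned: 27 of the 70 (38.6%) were higher at 6 h, against 7.62% of the whole list, and the median of 6 h over 30 h was 0.955, against 0.663.

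**Figure D4:**
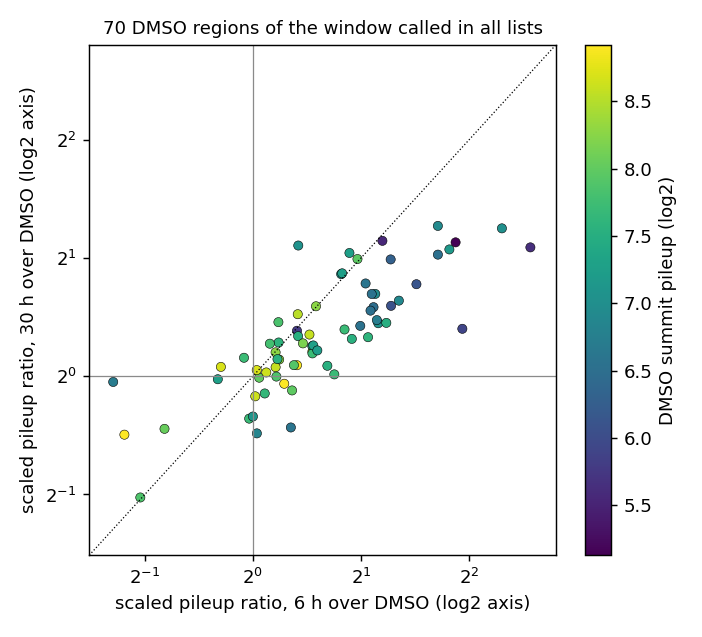
Scaled pileup ratio at 30 h over DMSO against that at 6 h over DMSO (both log2 axes) for the 70 regions called in all lists; colour is the log2 of the DMSO summit pileup and the dotted line marks equal ratios. Most points lie below the dotted line, 52 of 70.

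Regions without a DMSO counterpart were frequent at 6 h. They made up 24 of the 97 regions, 24.7% (17.2 to 34.2%), against 7.42% of the whole 6 h list. At 30 h they were 11 of 93, 11.8% (6.73 to 19.9%), against 17.9%, and here the interval includes the share of the whole list. The direction turned with lists of equal length (28.8% against 19.4%) and at a score of 1000 (15.9% against 12.2%). The window held 1.25% of all new 6 h regions and 0.160% of all new 30 h regions. Of the 24 new at 6 h, 10 also had a region at 30 h (41.7%, against 60.0% of all new 6 h regions), and 9 of the 11 new at 30 h had one at 6 h (81.8%, against 16.8%). When overlapping regions of all lists were joined, the window gave 110 loci. Of these, 14 were called at 6 h alone (12.7%, against 1.55% of 49676 loci), and 2 at 30 h alone (1.82%, against 11.5%). New regions thus stood mainly at 6 h, and nearly all of the few at 30 h were present at 6 h.

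The new 6 h regions had a median -log10 q of 41.0, against 25.7 for all new regions of that list. Their median fold enrichment was lower, 6.62 against 9.62. For the new 30 h regions it was 6.96 against 9.42. Within 500 bp of a DMSO region lay 5 of the 24 new at 6 h and 4 of the 11 new at 30 h. With such regions taken as shared, the share new at 6 h fell from 24.7% to 19.6% in the window. Over the whole list it fell from 7.42% to 6.92%. At 30 h it fell from 11.8% to 7.53% in the window and from 17.9% to 16.8% over the whole list. The strongest new 6 h region, from 21939605 to 21940111, had a pileup of 107 over a local background of 3.75. Its -log10 q was 111 and its fold enrichment 22.7, and it was not called at 30 h. Scaled to DMSO depth its pileup was 170, above the median of the DMSO regions of the window. The second, from 23400573 to 23401050, had a pileup of 118 (187 scaled) and was still called at 30 h with 83. Next to it lay a new region from 23399352 to 23399784 with 86 (137 scaled), also called at 30 h, with 55.

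Of the other 7 among the 10 strongest, 4 were called at 6 h alone. These were the regions from 21973581 to 21974038 with a pileup of 121 (192 scaled), from 23518326 to 23519098 with 182 (289 scaled), from 23613699 to 23613957 with 161 (256 scaled) and from 23541048 to 23541345 with 138 (219 scaled). All of these stood above the median DMSO pileup of the window after scaling. The remaining 3, from 21946845 to 21947460, from 22087435 to 22087768 and from 23837280 to 23837608, had pileups of 75, 82 and 132 (119, 130 and 210 scaled). At 30 h they were called with 47, 109 and 142 (58.2, 135 and 176 scaled), so that after scaling the first and the last were lower than at 6 h. The first of them lies within 500 bp of the DMSO region from 21947555 that was missing at both times.

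At 30 h the strongest new region, from 23722599 to 23722987, had a pileup of 89 over a local background of 2.81 and a fold enrichment of 23.7. It was already called at 6 h, with a pileup of 36. After scaling this is 110 at 30 h and 57.1 at 6 h, so that it was higher at the later time. The region from 23558192 to 23558510 had 124 at 30 h and 69 at 6 h, or 154 and 110 after scaling. The regions from 22087305, 23400441, 23837280, 23399356, 21872060 and 21946862 onward, with pileups of 47 to 142 at 30 h, also had a region at 6 h. The regions from 21809337 to 21809604 (pileup 130) and from 23616579 to 23616833 (pileup 50) had none, and are the 2 loci of the window called at 30 h alone.

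The higher levels were not even along the window. In consecutive bins of 100 kb, the bin from 21990000 to 22089999 went from 5 DMSO regions to 13 at 6 h and 6 at 30 h, with none missing. Its 5 kept regions had a median ratio of 2.09 (range 1.29 to 3.28) at 6 h and 1.62 at 30 h. The bin from 23490000 to 23589999 held 15 DMSO regions, of which 12 were kept at 6 h with a median ratio of 2.15 (1.34 to 4.95). It held 7 of the 21 regions at least 2-fold higher. At the start of the window, from 21790000 to 21889999, 8 kept regions had a median of 1.12 (0.815 to 2.55). The ratio of 2.55 was read at a 6 h summit inside a neighbouring DMSO region. In the last bin, from 23790000 to 23870000, 9 kept regions had a median of 1.47 (0.439 to 1.80) and none was 2-fold higher. From 23690000 to 23789999, 3 of 7 regions were missing at 6 h, near the 43.6% of the whole list. The 4 kept had ratios of 1.001 to 1.33. No bin between 22190000 and 22989999 held a region in any list.

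**Figure D5:**
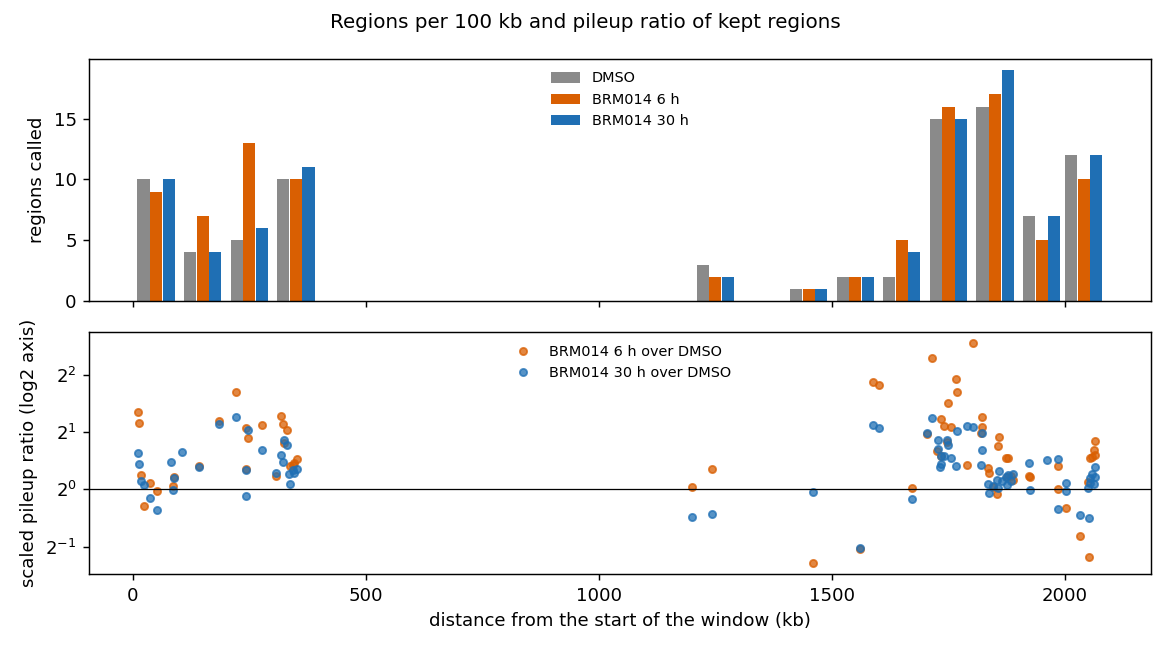
Number of regions called per 100 kb in each list (top) and scaled pileup ratio over DMSO of each kept region on a log2 axis (bottom), against distance from the start of the window in kb. The bin starting at 200 kb has 5, 13 and 6 regions in DMSO, 6 h and 30 h, and the 5 highest ratios at 6 h stand in the right-hand run.

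Both runs shared the pattern. In the first, 5 of 29 regions were missing at 6 h and 2 at 30 h, 13 were new at 6 h and 4 at 30 h, and the median ratio was 1.41 at 6 h and 1.28 at 30 h. In the second, 11 of 58 were missing at 6 h and 5 at 30 h, 11 were new at 6 h and 7 at 30 h, and the median ratios were 1.47 and 1.20. All 3 regions at least 2-fold lower at 6 h lay in the second run.

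Shape differed less than level. The width of the treated regions over that of the DMSO region they overlap had a median of 0.957 (0.903 to 0.997) at 6 h and 0.973 (0.953 to 1.004) at 30 h, against 0.914 and 0.952 over all kept regions. The main summit moved by a median of 9 bp at 6 h and 7 bp at 30 h, and stayed within 50 bp in 60 of 71 (84.5%) and 75 of 80 (93.8%) regions. Over all kept regions the medians were 12 bp and 10 bp, and the shares within 50 bp were 88.7% and 91.3%, near those of the window. The narrowest relative to DMSO at 6 h was the region from 23580454 to 23581081, at 0.459 of its width, followed by those from 23249688 (0.477) and 22032615 (0.511). At 30 h the most narrowed were the regions from 23855369 to 23855840 (0.513), 23249688 (0.527) and 23673184 (0.600). The region from 23580454 narrowed while its scaled pileup went from 134 to 179 at 6 h and 289 at 30 h, so width and height did not move together there.

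The widest ratios came from DMSO neighbours joined in a treated region. The regions from 23646762 to 23647582 and from 23647812 to 23648245 were covered by 1 region at 6 h, at 1.82 and 3.45 times their widths. The regions from 21801832 to 21802594 and from 21802727 to 21803274 were joined at 30 h, at 2.12 and 2.95 times. At 6 h the first of these was overlapped by 2 regions, at 1.89 times its width. The region from 21974678 to 21975167 widened to 1.90 times at 30 h without joining another DMSO region.

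The neighbouring stretches of equal length held fewer regions. The upstream flank had 46 DMSO regions. The 6 h list lacked 30.4% of them (19.1 to 44.8%) and the 30 h list 23.9% (13.9 to 37.9%). Its median ratio at 6 h was 1.12 (0.883 to 1.69) over 32 kept regions, of which 8 were at least 2-fold higher. At 30 h its median was 1.25 (1.02 to 1.42) over 35 kept regions, and that of the window was also 1.25. Of the 35 DMSO regions of the downstream flank the 6 h list lacked 48.6% (33.0 to 64.4%) and the 30 h list 31.4% (18.6 to 48.0%). Its median ratio at 6 h was 0.712 (0.383 to 1.23), and none of its 18 kept regions was 2-fold higher. At 30 h its median was 0.993 (0.680 to 1.17). Of new 6 h regions the upstream flank had 3 of 35, 8.57% (2.96 to 22.4%). The downstream flank had 1 of 19, 5.26% (0.935 to 24.6%). Chromosome 13 as a whole, with the window included, had 46.7% missing at 6 h, 8.74% new at 6 h and a median ratio of 0.798 (0.769 to 0.822). Levels above DMSO thus also occurred next to the window on its upstream side. The share at least 2-fold higher at 6 h and the median ratio at 30 h did not set the window apart from that flank. For the shares missing at 6 h and at 30 h, the intervals of the window and that flank overlapped. The same held for the share new at 6 h and the median ratio at 6 h.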

How the data were processed

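ATAC-seq was made from 6 samples in 3 groups of 2 replicates. Per the labels, 1 peak list per group was made from both replicates, so there are no replicate values, no test between treatments, and no leaving out of replicates. The submitters' processing notes name MACS2 2.1.2 and the build mm9. Not given in the sources used here are the aligner, the read filters, the treatment of reads that match several histone copies, and the options of the caller. The authors deposited for each entry a score, the fold enrichment at the summit (a linear ratio), its -log10 p and -log10 q, and the summit offset, all used within their own list.

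Entries that overlap were merged into regions with the highest value of each measure. A region was kept when at least 1 bp overlapped a region of the other list, and was given the highest pileup of the regions that overlapped it. A whole-number summit pileup and a local background were solved from fold enrichment and -log10 p on the caller's default formulas, which are assumed. They matched the deposited -log10 p within 0.001 for 100% of entries. Pileups were scaled by the lowest local background of each list (3.37 DMSO, 2.12 at 6 h, 2.72 at 30 h), taken as the genome average, which stands for depth, since read totals were not analysed here. Intervals of shares are Wilson, those of medians come from binomial order statistics, and those of a pileup ratio are exact binomial, all at 95%. Those of a pileup ratio cover the counting error of fragments only. The others treat the regions of a list as independent of each other, which neighbours may not be. None covers variation between replicates. The merging, the overlap and the solving of pileups were tested on simulated data. These data were made with the same assumed formulas, so the formulas themselves were not tested, and neither was the scaling. Python 3.11.15, pandas 2.3.3, scipy 1.17.1 and statsmodels 0.14.6 were used.

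The window, lists and regions named were chosen with earlier results of these data known. Named are the 10 DMSO regions with the highest -log10 q, those missing (the 10 highest where more than 15), the 10 highest new regions at each time, the 3 narrowed and 3 widened most, and the edges of gaps over 200 kb. The regions with the largest pileup ratios were added after their values were seen. Alternatives changed the overlap rule, the score and -log10 q minimum, the list length, the window edges and the scaling. Promoter sequences and gene order come from RefSeq tables on GRCm38.p6, another build, so no region was assigned to a gene.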

Additional observations from a re-analysis of the deposited data

How the results depend on the processing

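Of 71 values under other settings, 59 stayed within the interval of the reported value and 12 left it. The 59 include the values under a -log10 q minimum of 5, which are no check. The lowest -log10 q of the window was 17.3 in DMSO, 18.7 at 6 h and 18.2 at 30 h, so that minimum removed none of its regions. With lists of equal length (25922 regions each) the window's shares missing were 3.85% at 6 h, 0% at 30 h and 0% in both, and its shares new were 47.4% and 28.8%. The cause was not tested. Over all regions this gave 23.1%, 19.9% and 14.9% missing and 22.3% and 19.4% new, so that under this setting the window was above the whole list also in new regions at 30 h. At a score of 1000 the new regions at 30 h were likewise above it, 15.9% against 12.2%. With every entry counted, missing at 6 h was 11.2% and new at 6 h 16.7%, against 35.6% and 5.04% over all entries. With regions within 500 bp taken as shared, missing at 6 h was 11.5%, against 41.5%. In the latter setting neighbours count as kept by construction, and for entries the cause was not tested. Without scaling the median pileup ratio was 0.923 at 6 h and 1.01 at 30 h. Scaled to the median of all kept regions it was 1.71 and 1.27, and 28 of 71 regions were at least 2-fold higher at 6 h (39.4%, against 2.46%). The share of regions higher at 6 h than at 30 h, 74.3%, was 38.6% without scaling and 88.6% with that scaling, both added after seeing the data. The regions sharing no treated region with another, a setting added after seeing the data, gave 1.44 and 1.23. In each setting run, the window's share missing was below, its share new at 6 h above, and its pileup ratio above that of all regions. No paired analysis was possible because a list pools the 2 replicates of a group. Depth relative to DMSO was estimated from the lowest local backgrounds and not measured. A missing region is one not called, not one shown to be closed.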
